A study of Xenopus tropicalis with 12 samples.

Results

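The loss of thyroid hormone receptor α (TRα) in the untreated tail of Xenopus tropicalis tadpoles was examined here through 3746 genomic regions at which fragments from chromatin immunoprecipitation for thyroid hormone receptor (TR) piled up. The samples compared were TRaKO-Tail-control (TRaKO control), the tail of tadpoles without a functional copy of the TRα gene, and WT-Tail-control (WT control), the tail of wild-type siblings with the same parents. Both groups were left without added hormone, were at around stage 54, and had 3 libraries each. TRaKO-Tail-T3 and WT-Tail-T3 were 3 libraries each of the same genotypes kept in 10 nM T3 for 18 hours. They served to see whether differences of the untreated tail recurred or changed with T3, and were also compared with each other. The 3 libraries of a group are described, in wording that speaks of RNA, as technical replicates of material merged from several tadpoles, so every p-value reflects how libraries vary, not how animals vary. Regions were made by joining peaks of the 6 untreated lists that shared at least 1 bp, and those present in 4 or more of the 6 lists were kept. This kept 3746 of 157744 regions of the 6 lists, in a series with 256032 regions over all 12 lists.

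TRα and TRβ are nuclear receptors that sit on DNA as heterodimers with retinoid X receptor. Without hormone they recruit corepressors and hold target genes down, and with the hormone T3 they exchange these for coactivators. TRα is present in most tadpole tissues well before metamorphosis, whereas the TRβ gene is itself induced by T3, and the tail is resorbed at the climax when hormone is high. The labels name no change to the TRβ gene in the TRaKO tadpoles, and they call the antibody a TR antibody without saying which receptor it binds. Peak lists hold no reading of the TRα transcript or of tissue markers, so the labels of genotype and tissue were not checked here. No input library was used in calling peaks, so a peak shows a local excess of fragments only, and fewer occupied cells cannot be told apart from less DNA precipitated per cell. Regions are named by their position in build 9.1; genes and sequence at them were not analysed here.

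The TRaKO control libraries held 284375, 606620 and 858074 fragments after removal of duplicates, and the WT control libraries 480140, 1024937 and 1382723. The level of a region in a library is the pileup at the highest summit (fragments over 1 position) per 1000000 fragments of that library, written FPM, and a list without a peak is missing, not 0. Depth set the lowest level that could be listed, which was 7.03, 3.30 and 2.33 FPM in TRaKO control 1, 2 and 3 and 4.17, 1.95 and 2.17 FPM in WT control 1, 2 and 3. Accordingly the shallowest library, TRaKO control 1, had a peak in 46.4% of the 3746 regions, against 81.0% and 87.3% in the other TRaKO controls and 72.6%, 93.4% and 94.4% in the WT controls. No list held a peak shorter than the fragment size of its library, which was 155, 190 and 204 bp in the TRaKO controls and 151, 179 and 201 bp in the WT controls. Library 3 of TRaKO-Tail-T3 stood apart as the shallowest of the series, with 149532 fragments and a lowest listed level of 6.69 FPM.

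All 6 lists held a peak at 809 of the 3746 regions (21.6%). Another 295 regions had 3 TRaKO control and 2 WT control lists, 900 had 2 and 3, and 960 had 2 and 2. The most uneven patterns were 114 regions (3.04%) with 3 TRaKO control lists and 1 WT control list, and 668 regions (17.8%) with 1 and 3. These counts moved with depth: of the 668 regions, 594 lacked a peak in TRaKO control 1, 447 in TRaKO control 2 and 295 in TRaKO control 3. The median level rose with the number of lists, being 6.44 FPM in regions of 4 lists, 8.18 in regions of 5 and 15.0 in regions of 6. In fragments this was a median pileup of 5, 6 and 10, so most regions rested on few fragments in any library. Over the 809 regions of all 6 lists the libraries had close medians, of 14.1, 13.2 and 14.0 FPM in the TRaKO controls and 14.6, 14.6 and 14.5 FPM in the WT controls.

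Most regions had levels in the TRaKO tail that could not be told from those in the WT tail, and a small set differed strongly. Of the 3746 regions, 46 were called higher in TRaKO control (1.23%) and 26 lower (0.694%) by limma on log2 levels at a Benjamini-Hochberg adjusted p under 0.05, while 409 had an unadjusted p under 0.05. The median log2 difference, TRaKO minus WT, was 0.12 over all regions and 0.03 over the 809 regions of all 6 lists. It turned negative, to -0.11, over the regions with a mean pileup of at least 10 fragments. The middle 90% of regions (5th to 95th percentile) lay between -0.93 and 1.22. A single region had a median standard error of 0.54 and a median 95% confidence half-width of 1.11 on the log2 scale. That interval is not adjusted for the number of regions. At a region of that standard error a difference thus had to be well over 1.11 to be called at this depth. The smallest difference called was 0.60, at a tall region with a standard error of 0.12. Calls came almost only from the stronger regions: the lowest tertile by level gave 0 calls, the middle tertile 4 higher and 0 lower, and the highest tertile 42 higher and 26 lower. Among the 809 regions of all 6 lists, the TRaKO control values lay wholly above the WT control values in 85 (10.5%) and wholly below them in 103 (12.7%). Of these 809 regions, 18 were called higher and 17 lower, and in all 18 and all 17 the groups did not overlap. The number called lower rests on the variance trend of the fit, since without it 30 regions were called higher and 1 lower. Without TRaKO control 3 the fit called 76 regions higher, and without WT control 1 it called 17 lower. With the replicate number as a block 24 were called higher, and with the block and median ratio scaling 46 were called lower.

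**Figure D1:**
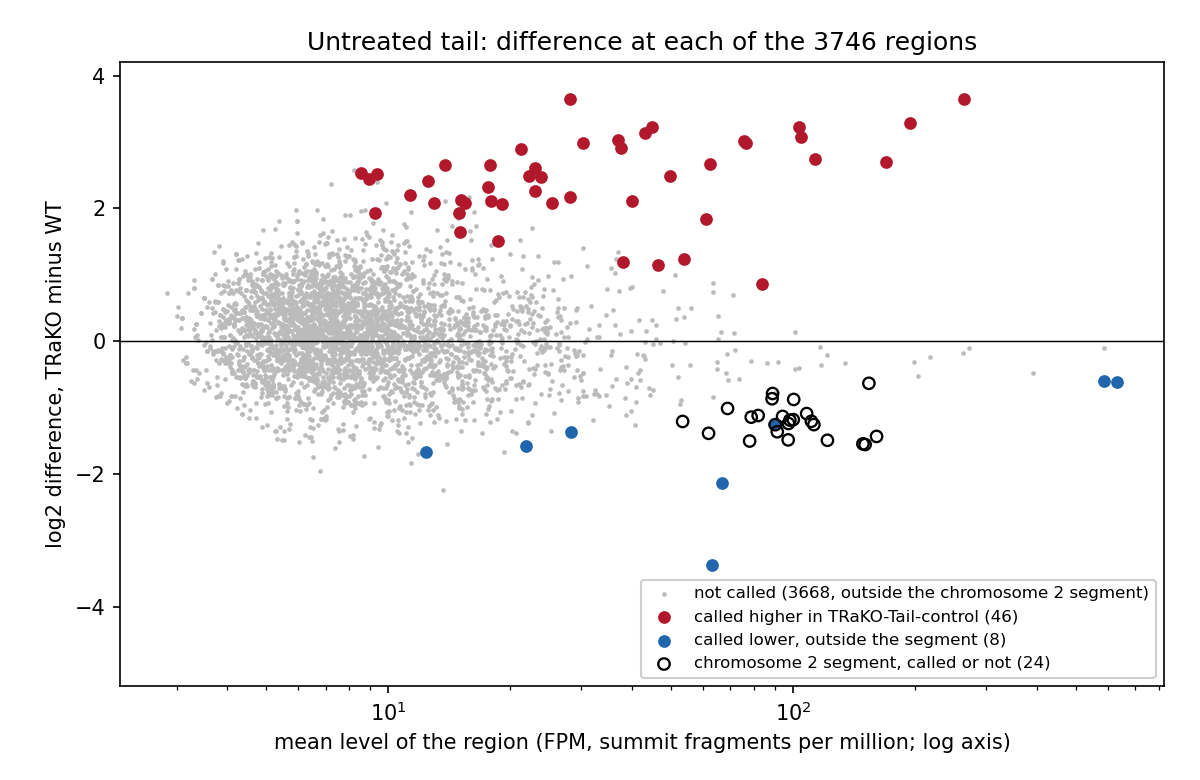
Log2 difference (TRaKO control minus WT control) against the mean level of each of the 3746 regions, in FPM on a log axis. The 46 regions called higher (red) are scattered over levels from 8.56 to 264 FPM, whereas 18 of the 26 called lower lie in the 24 regions of a segment of chromosome 2 (open circles), all below 0.

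The regions called higher were isolated sites with large differences. Their levels in TRaKO control were 1.82 to 12.5 times those in WT control, with a median of 5.59, and 37 of the 46 were at least 4-fold higher. Many of these folds rest on few WT fragments. The largest, on chromosome 1 from 189160991, had 12, 19 and 31 summit fragments in TRaKO control and 4 in WT control 3 alone. Where a peak was listed, the median level of the 46 was 12.5, 8.78 and 5.79 FPM in WT controls 1, 2 and 3. The lowest levels these could list were 4.17, 1.95 and 2.17 FPM. They lay on all 10 chromosomes, and none had another region called higher within 50 kb. For scale, neighbouring regions of the whole set were a median of 65.8 kb apart. Whether 46 regions drawn from the set would lie as far apart was not tested. Left out for lack of a peak were 1 or 2 WT control lists at 25 of the 46 regions and 1 or 2 TRaKO control lists at 5, so many calls rest on fewer than 6 libraries. In 10 regions a single WT control list stood for the WT tail and in 1 a single TRaKO control list for the TRaKO tail.

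The region of lowest p lay on chromosome 5 from 6443944 to 6444568, with 106, 235 and 255 summit fragments in TRaKO controls 1, 2 and 3, against 13, 49 and 50 in WT controls 1, 2 and 3. Scaled to depth these were 373, 387 and 297 FPM in TRaKO control and 27.1, 47.8 and 36.2 FPM in WT control. The lowest TRaKO value was thus several times the highest WT value, and the log2 difference was 3.28 ± 0.23 (SE; limma adjusted p = 9.56e-10). A similar picture held on chromosome 8 from 82453567 to 82454428, where the summit held 47, 119 and 169 fragments in TRaKO control and 9, 17 and 35 in WT control. The levels averaged 186 ± 18.1 FPM in TRaKO control and 20.2 ± 4.54 FPM in WT control (SD, n = 3 each), a log2 difference of 3.22 ± 0.26 (SE, limma adjusted p = 6.3e-09). Both regions had a peak in all 6 lists, and within each region the groups were far apart.

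On chromosome 6 a region from 12218462 to 12218804 held 72, 115 and 129 summit fragments in TRaKO control and 14, 33 and 35 in WT control. The levels averaged 198 ± 51.9 FPM in TRaKO control and 28.9 ± 3.45 FPM in WT control (SD, n = 3 each), 6.72-fold higher. A further region of chromosome 6, from 82790518 to 82790769, held 46, 67 and 115 fragments in TRaKO control and 10, 15 and 22 in WT control, 7.90-fold higher. On chromosome 9 from 3883816 to 3884329 the counts were 32, 70 and 81 in TRaKO control and 7, 16 and 29 in WT control, 6.36-fold higher. In all 3 regions every TRaKO control level exceeded every WT control level, and the limma adjusted p-values were between 5.01e-08 and 7.78e-07.

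In the other 3 of the 8 leading regions a WT control list was missing. On chromosome 1 from 71652839 to 71653056 the summit held 113, 218 and 232 fragments in TRaKO control and 13 in WT control 1, with no peak in WT controls 2 and 3. At the mean TRaKO level, 351 and 473 fragments would have been present in those libraries. By the mean over the lists with a peak this was the tallest of the 46 regions, with 2 WT control lists left out of that mean. It had a log2 difference of 3.64 ± 0.27 (SE; limma adjusted p = 6.3e-09). It was also narrow: its TRaKO peaks were 184, 207 and 215 bp long, close to the shortest length that the lists held (179 bp in WT control 2 and 201 bp in WT control 3), and whether length or level kept it out of those lists was not tested. On chromosome 4 from 114925061 to 114925299 the summit held 49, 95 and 134 fragments in TRaKO control and 9 and 20 in WT controls 1 and 2, 8.45-fold higher. On chromosome 3 from 53245461 to 53245701 it held 64, 134 and 172 fragments in TRaKO control, against 34 in WT control 2 alone. At the TRaKO level 103 and 298 fragments would have been seen in WT controls 1 and 3, and the log2 difference of 2.70 ± 0.28 (SE; limma adjusted p = 1.1e-06) rests on that single WT value.

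**Figure D2:**
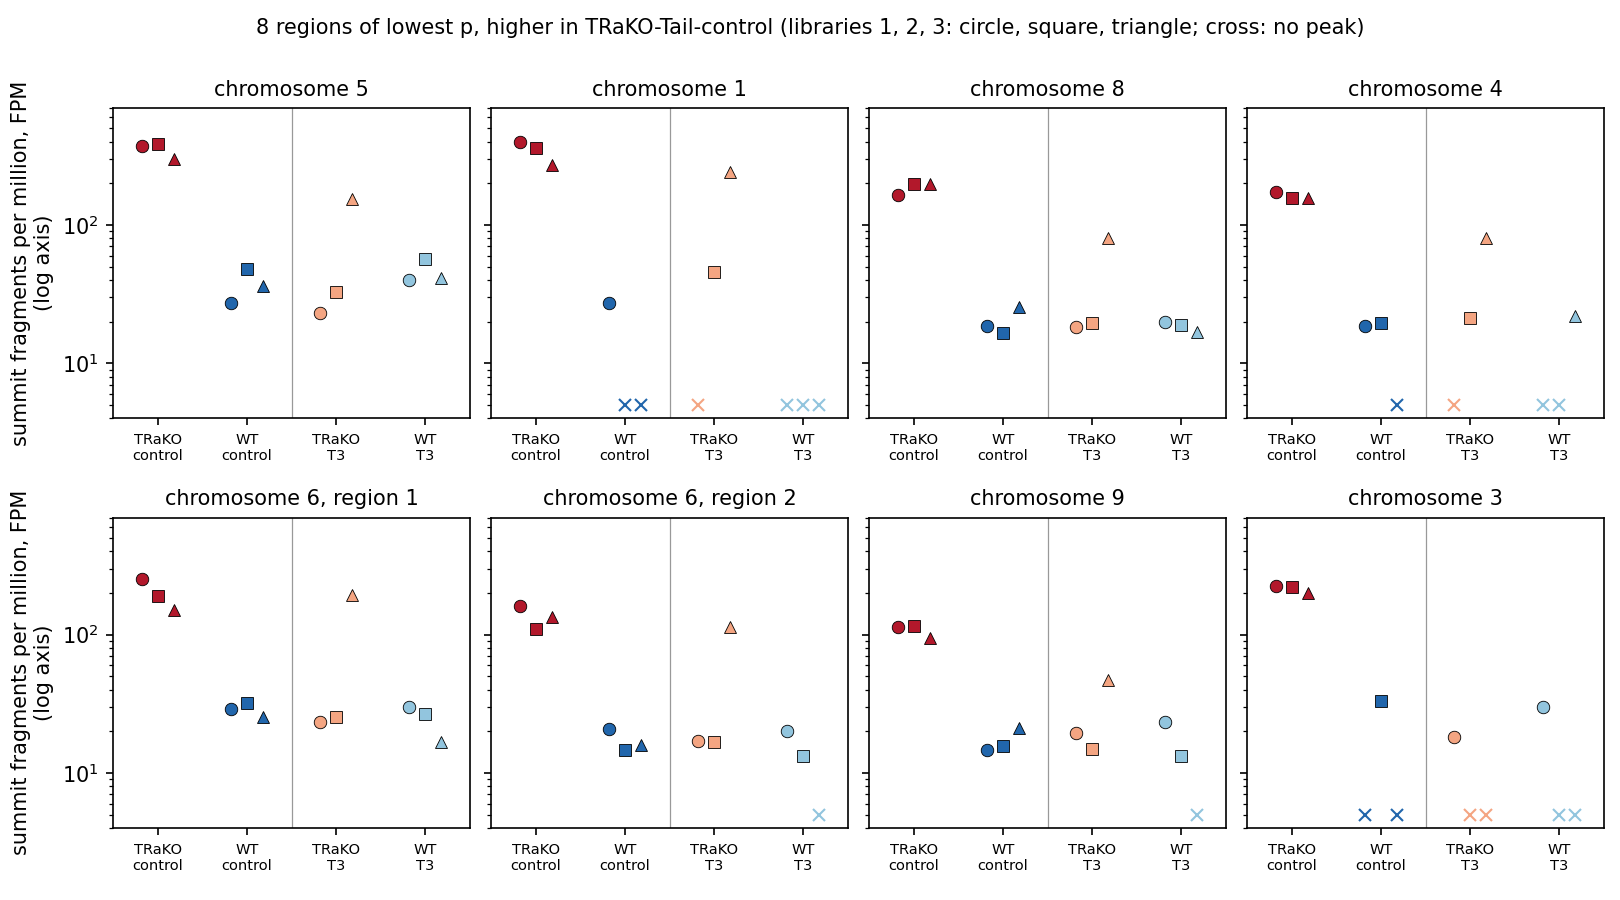
Level in FPM (log axis) of the 8 regions of lowest p among those called higher in TRaKO control, with 1 point per library, and a cross at the foot of a panel for a list without a peak. In each panel the 3 TRaKO controls stand above every WT control with a peak, and among the T3-treated libraries TRaKO-Tail-T3 3 (pale triangle) is the highest wherever it has a peak.

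Narrow peaks were frequent among the regions called higher. Of the 46 regions, 11 were under 300 bp wide (23.9%), against 54 of all 3746 (1.44%), and the median width was 483 bp, against 903 bp over all regions. The median peak was 1.95 times the fragment size of its library, against 2.96 times over all regions. For comparison, peaks at the 292 regions of at least 20 FPM that were not called were 3.84 times the fragment size. Of the 25 regions with a missing WT list, 10 had no TRaKO peak of 300 bp or more, against 3 of the 21 without one. These are descriptions of regions picked by their difference and carry no test.

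The regions called lower in TRaKO tail were, in contrast, mostly neighbours. Of the 26, 18 lay within 87.6 kb of chromosome 2, from 102075246 to 102162844, and the other 8 lay on 6 chromosomes, each with no other region called lower within 50 kb. Joining regions by gaps of at most 50 kb gave a segment from 102070616 to 102162844, 92.2 kb long, with 24 regions. All 24 had a lower level in TRaKO control than in WT control, with log2 differences of -1.56 to -0.63. The median difference was -1.21, which is 2.31-fold lower in TRaKO control. The nearest other regions lay 3079 kb to the left, with a difference of -0.01, and 6984 kb to the right, with 0.73, and neither was called. The segment was picked out after the values were seen, and neighbouring regions share fragments and local background, so its 24 regions are not 24 independent observations and the segment as a whole was not tested. Without the variance trend of the fit, none of its regions was called.

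Within the segment the region of lowest p, from 102095330 to 102097716, held 27, 42 and 56 summit fragments in TRaKO control and 103, 251 and 281 in WT control. Its levels were 94.9, 69.2 and 65.3 FPM in TRaKO control and 215, 245 and 203 FPM in WT control, a log2 difference of -1.55 ± 0.21 (SE; limma adjusted p = 2.71e-05). The next region, from 102078691 to 102079611, had 63.3, 107 and 64.1 FPM in TRaKO control and 233, 211 and 225 FPM in WT control. From 102155950 to 102158347 the levels averaged 88.5 ± 25.8 FPM in TRaKO control and 233 ± 14.4 FPM in WT control (SD, n = 3 each). In these 3 regions the highest TRaKO control value lay below the lowest WT control value. The other 4 segment regions among the 8 of lowest p, which start at 102152721, 102075246, 102161184 and 102147397, were 2.81-fold, 2.39-fold, 2.80-fold and 2.31-fold lower in TRaKO control, with limma adjusted p-values of 0.000185 to 0.00138. These 4 did not overlap between the groups either, among the lists with a peak.

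The lower level in TRaKO tail extended over the whole segment. Over its 12 regions of all 6 lists the median level was 66.8, 74.2 and 54.2 FPM in TRaKO controls 1, 2 and 3, against 143.7, 175 and 155 in WT controls 1, 2 and 3. The median local background that the peak caller drew from the surrounding sequence was 15.0 ± 1.69 FPM in TRaKO control and 38.2 ± 6.46 in WT control (SD, n = 3 each). Over all peaks of a list the median local background was only 0.149 to 0.224 FPM in the 12 libraries. That background is an average over 10000 bp which includes the fragments of the peaks themselves, and the sequence between summits was not measured on its own. WT control lists had a peak at all 24 regions in each library, and TRaKO controls 1, 2 and 3 had peaks at 13, 22 and 21. Over all 3746 regions, 46.4%, 81.0% and 87.3% had a peak in TRaKO controls 1, 2 and 3. The shares in WT controls 1, 2 and 3 were 72.6%, 93.4% and 94.4%. The TRaKO controls thus lacked peaks no more often in the segment than over all regions. The 6 T3 libraries took no part in the calls. Over the 10 segment regions with a peak in all 12 lists, their median level was 137 ± 7.72 FPM in TRaKO-Tail-T3 and 181 ± 11.6 in WT-Tail-T3 (SD, n = 3 each). The genotypes did not overlap there, and all 24 regions again had a lower level in the TRaKO tail, with log2 differences of -0.75 to -0.10. The median T3 difference of the 24 was -0.35, against -0.19 over all regions with a peak in both T3 groups. Most of the latter were weaker and so nearer to the lowest level that a list could hold. That level was 2.44, 1.94 and 6.69 FPM in TRaKO-Tail-T3 1, 2 and 3 and 6.68, 3.78 and 2.58 FPM in WT-Tail-T3 1, 2 and 3. How far it moved the -0.19 was not tested.

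**Figure D3:**
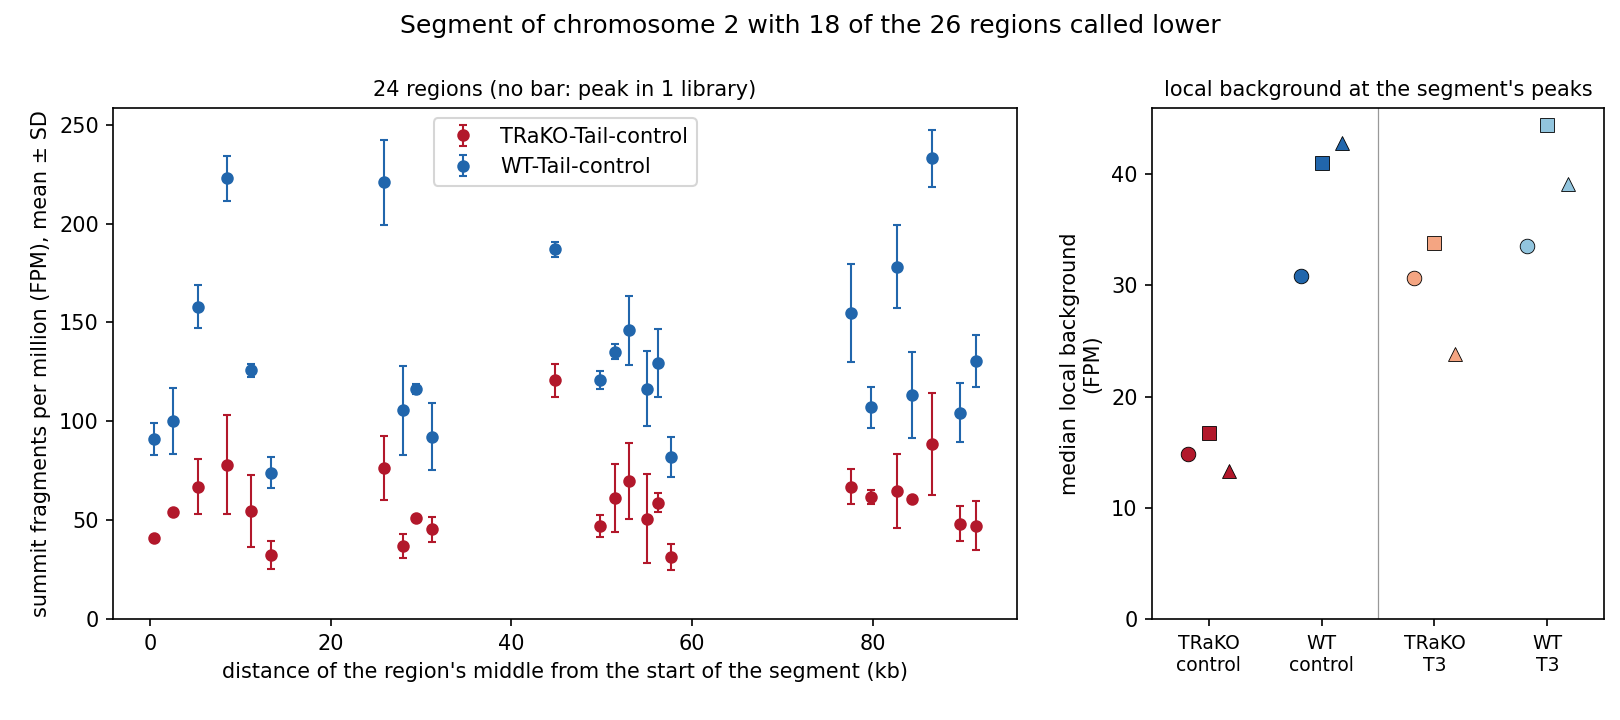
Left, mean level with SD of the 24 regions of the chromosome 2 segment in TRaKO control and WT control, in FPM, by distance in kb from the start of the segment. Right, the median local background at the segment's peaks in each of the 12 libraries, which is lowest in the 3 TRaKO controls (15.0 ± 1.69 FPM).

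Outside the segment, the 8 regions called lower were of several kinds. On chromosome 3 from 76367407 to 76367821 the summit held 2 fragments in TRaKO control 1 and had no peak in TRaKO controls 2 and 3, against 67, 56 and 70 fragments in WT control. At the mean WT level 49.5 and 70.0 fragments would have been seen in TRaKO controls 2 and 3. The WT control levels were 140, 54.6 and 50.6 FPM, the first far above the others. The log2 difference of -3.37 ± 0.50 (SE, limma adjusted p = 0.000161) rests on a single TRaKO value of 2 fragments, and with values weighted by their pileup the adjusted p was 0.415. On chromosome 5 from 90893591 to 90894224 the summit held 5 fragments in TRaKO control 1 alone and 52, 101 and 59 in WT control, a log2 difference of -2.13. On chromosome 1 from 71371865 to 71372382 all 6 lists had a peak, with 80.9, 44.5 and 39.6 FPM in TRaKO control and 133, 123 and 116 FPM in WT control, a difference of -1.24. Smaller regions on chromosome 4 from 219423 to 220402, on chromosome 7 from 30889887 to 30890288 and on chromosome 8 from 108179986 to 108180815 had log2 differences of -1.66, -1.37 and -1.58. Those on chromosomes 4 and 8 had at most 7 fragments in any TRaKO control.

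Among the 809 regions of all 6 lists, the 6 of highest mean level differed by at most 1.53-fold between the genotypes. All 6 had lower means in TRaKO control than in WT control, and 2 of them were called lower. Other tall regions differed more. Of the 20 tallest of the 809 regions, 6 were called lower and 2 higher, and 5 of the 20 lay in the chromosome 2 segment. On chromosome 5 from 35928559 to 35930447 the levels were 527, 514 and 444 FPM in TRaKO control and 821, 841 and 627 FPM in WT control, 1.53-fold lower (log2 difference -0.61 ± 0.13 SE; limma adjusted p = 0.00605). On chromosome 8 from 23529071 to 23530254 they were 447, 528 and 423 FPM in TRaKO control and 648, 768 and 693 FPM in WT control, 1.51-fold lower with the same adjusted p. A neighbour on chromosome 8, from 23523130 to 23524073, had 324, 374 and 286 FPM in TRaKO control and 414, 475 and 475 FPM in WT control. The groups did not overlap at this neighbour either, but its difference of -0.48 did not pass the threshold (limma adjusted p = 0.0878). Both calls are lost without the variance trend and when a WT library is left out, WT control 1 for the region on chromosome 5 and WT control 2 for the region on chromosome 8.

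The other 3 of these 6 regions were not called. On chromosome 10 from 16969892 to 16970785 the levels averaged 566 ± 128 FPM in TRaKO control and 606 ± 123 FPM in WT control (SD, n = 3 each), with a 95% interval of the log2 difference from -0.42 to 0.21. On chromosome 4 from 52501691 to 52502265 they averaged 262 ± 24.9 FPM in TRaKO control and 283 ± 51.7 FPM in WT control, with an interval from -0.44 to 0.23. On chromosome 3 from 110350629 to 110351472 they averaged 246 ± 32.5 FPM in TRaKO control and 278 ± 31.9 FPM in WT control, with an interval from -0.51 to 0.16. The genotypes overlapped at each of these 3 sites, and none of the intervals reached below -0.51. Among the regions of all 6 lists outside the chromosome 2 segment, 17 of the 20 tallest had a negative difference, with a median of -0.31. It was 31 of the 50 tallest (median -0.20) and 56 of the 100 tallest (median -0.10). This compares with 393 of all 809 regions of all 6 lists, and with 1600 of all 3746 regions (42.7%). Tall regions with a missing list were left out of the counts of the tallest.

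**Figure D4:**
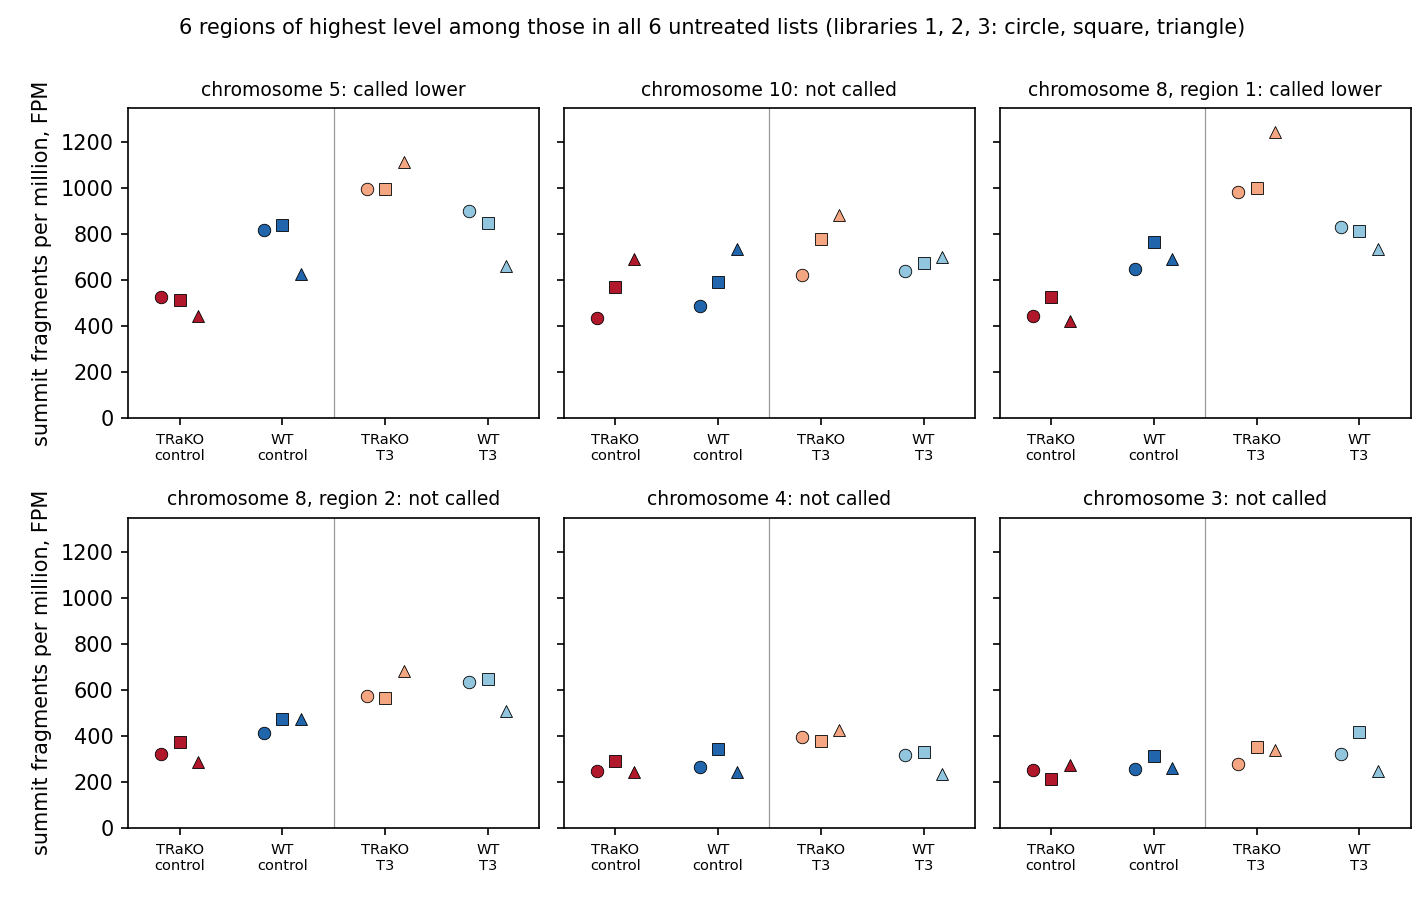
Level in FPM (linear axis from 0) of the 6 regions of highest mean level among the 809 with a peak in all 6 untreated lists, with 1 point per library. On chromosome 5 and at the first region of chromosome 8 the 3 TRaKO controls lie below the 3 WT controls, while the 3 TRaKO-Tail-T3 libraries lie above the 3 WT-Tail-T3 libraries.

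Among the regions with 3 lists of 1 genotype and 1 of the other, the tallest were partly the same sites. With 3 TRaKO control lists, the tallest were the regions described above on chromosome 1 from 71652839 and on chromosome 3 from 53245461, followed by chromosome 3 from 133621827 to 133622586. There the summit held 15, 58 and 64 fragments in TRaKO control and 28 in WT control 3 alone, a log2 difference of 1.83 (limma adjusted p = 0.0124, and 0.277 without the variance trend). With 3 WT control lists, the tallest were 3 regions of the chromosome 2 segment, starting at 102099329, 102154732 and 102072514. Their WT control means were 116, 113 and 100 FPM, against 51.3, 61.0 and 54.4 FPM in the only TRaKO control library with a peak. None of these 3 was called with missing lists left out (limma adjusted p of 0.0525, 0.251 and 0.279), and all 3 were called once a missing list was set to the lowest pileup of that list. That setting puts 2 fragments in a missing TRaKO control list. The median local background at the segment's peaks was 4.23, 10.1 and 11.4 fragments in TRaKO controls 1, 2 and 3. A call is thus built into the setting, and it adds no evidence that these 3 regions were lower. At their WT level, between 28.5 and 97.3 fragments would have been present in the TRaKO control lists without a peak.

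The T3-treated tail, which the calls did not use, held peaks at most of the regions: 83 of the 3746 were in none of the 6 T3 lists and 623 (16.6%) were in all 6. Of the 46 regions called higher, 26 had a peak in both T3 groups, and 16 of these 26 were again higher in the TRaKO tail (61.5%). Left out were regions without a WT-Tail-T3 peak (17), without a TRaKO-Tail-T3 peak (9) or, counted in both, with neither (6). The signs rest on means that include TRaKO-Tail-T3 3, the shallowest library, and were not counted without it. The region of lowest p on chromosome 5 counts among the 16, although TRaKO-Tail-T3 1 and 2 lay below every WT-Tail-T3 library there. Among regions not called that were higher in untreated TRaKO tail, 646 of 1741 with a peak in both T3 groups were higher again (37.1%). These regions were picked for their untreated difference, and only their T3 values are independent of that choice. The median difference of the 26 was 0.15 in T3-treated tail, against 2.41 in untreated tail. All 26 regions called lower had a peak in both T3 groups and 20 kept their sign (76.9%), against 843 of 1409 regions not called that were lower in untreated TRaKO tail (59.8%). However, 18 of the 20 that kept their sign lie in the chromosome 2 segment, and of the 8 elsewhere 2 did so. The shares compare regions of unlike level: the median untreated level was 7.83 FPM over all regions. It was 26.7 FPM in those called higher and 92.8 FPM in those called lower. The T3 groups were also compared with each other over the 2232 regions that 4, 5 or 6 T3 libraries listed, without regard to genotype. There limma called 0 regions higher and 0 lower (0% each). An unadjusted p under 0.05 was reached by 95 regions, and the smallest adjusted p was 0.809. Without TRaKO-Tail-T3 3 that comparison called 1 region higher and 14 lower in TRaKO-Tail-T3, with none of the 14 in the chromosome 2 segment. None of the 14 had been called lower in untreated tail. Those on chromosome 2 from 155159734 and on chromosome 6 from 69210941 had been called higher there.

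TRaKO-Tail-T3 3, the shallowest library, had high levels where it had a peak, both at the regions called higher and over all regions. Of the 20 regions called higher at which it had a peak, 18 lay above every WT control value, and of all 1426 regions with its peak 1111 did so (77.9%). TRaKO-Tail-T3 1 lay above every WT control value in 10 of 25 regions called higher (40.0%) and 24.4% of all its regions, and TRaKO-Tail-T3 2 in 10 of 31 (32.3%) and 20.8%. At 3 of the 20 regions and 237 of the 1426, every WT control value was under the lowest level that TRaKO-Tail-T3 3 could list. On chromosome 1 from 71652839, for example, it had 241 FPM and TRaKO-Tail-T3 2 had 45.9, with no peak in TRaKO-Tail-T3 1 or in any WT-Tail-T3 list. It was the highest of its group in 11 of the 12 regions called higher with a peak in all 3 TRaKO-Tail-T3 lists, but it was so too in 958 of 1154 such regions overall (83.0%). At the region of lowest p on chromosome 5, TRaKO-Tail-T3 1, 2 and 3 had 23.2, 33.0 and 154 FPM, and WT-Tail-T3 1, 2 and 3 had 40.1, 56.7 and 41.3. TRaKO-Tail-T3 1 and 2 thus lay below all 3 WT-Tail-T3 libraries at this site, and TRaKO-Tail-T3 3 above them.

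**Figure D5:**
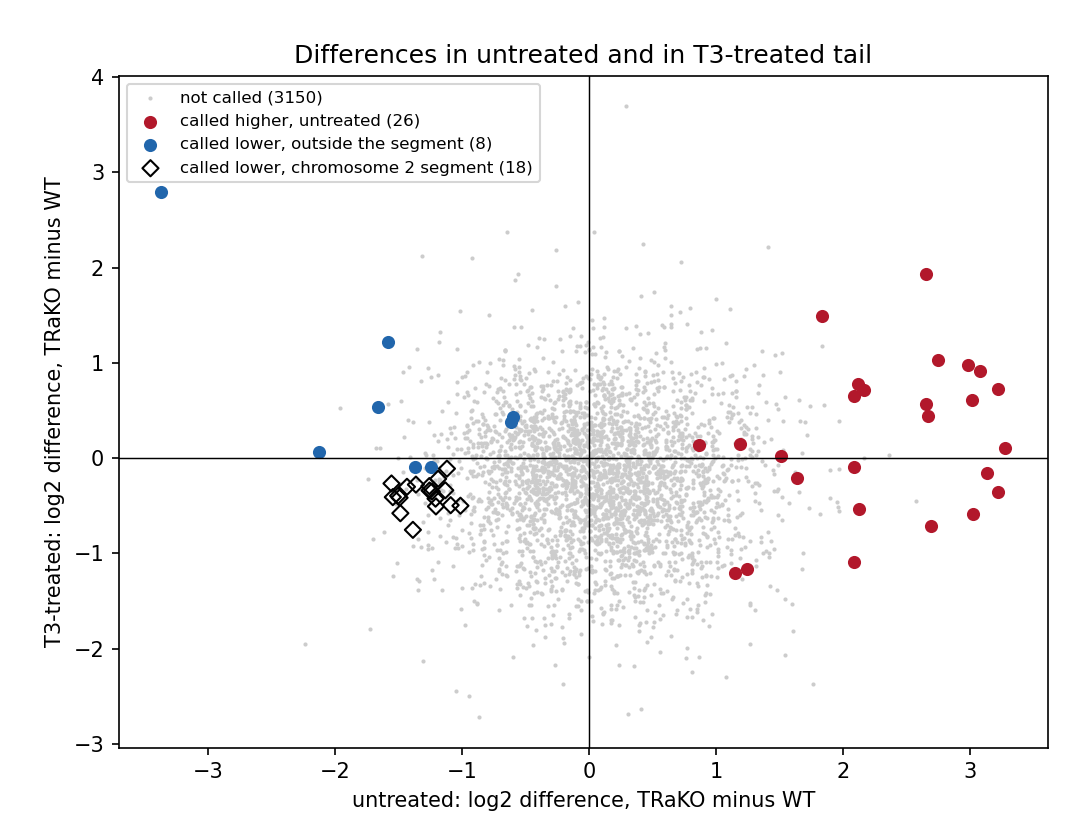
Log2 difference, TRaKO minus WT, of each region in untreated tail (horizontal) and in T3-treated tail (vertical), for the 3202 regions with a peak in both T3 groups. Regions called higher (red) have T3 differences spread around a median of 0.15, and the 18 called regions of the chromosome 2 segment (diamonds) all lie below 0 on both axes.

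Whether the genotype difference itself changed with T3 was tested in the 1735 regions with at least 2 lists in each of the 4 groups, and 6 passed (0.346%). At the tall regions of chromosomes 8 (from 23529071) and 5 (from 35928559), the TRaKO level was below the WT level in untreated tail and above it after T3. The first had 985, 1002 and 1244 FPM in TRaKO-Tail-T3 and 832, 814 and 738 FPM in WT-Tail-T3, and its interaction (the T3 difference minus the untreated difference) was 1.03 ± 0.16 on the log2 scale (SE; limma adjusted p = 0.00163). The second had 999.6, 998.6 and 1117 FPM in TRaKO-Tail-T3 and 902, 848 and 664 FPM in WT-Tail-T3, with an interaction of 0.99 ± 0.17 (SE; limma adjusted p = 0.00577). At both, the 2 genotypes were apart in each condition and in opposite directions. At the other regions of the 6 tallest with all 6 lists, the sign of the difference changed in the same way. Their T3 differences were 0.17 on chromosome 10, 0.028 on chromosome 8 from 23523130, 0.46 on chromosome 4 and 0.0066 on chromosome 3. None of these interactions passed. On chromosome 8 from 108179986 the levels were 42.7, 42.0 and 86.9 FPM in TRaKO-Tail-T3 and 30.1, 32.1 and 12.9 FPM in WT-Tail-T3, with an interaction of 2.80 (limma adjusted p = 0.0320).

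The other 3 interactions were negative. On chromosome 6 from 135051044 to 135051557 the levels were 70.3, 79.1 and 59.4 FPM in TRaKO control and 5.85 and 9.40 FPM in WT controls 2 and 3. After T3 they were 11.0, 5.82 and 13.4 FPM in TRaKO-Tail-T3 and 11.3 and 12.9 FPM in WT-Tail-T3 2 and 3, so the large untreated difference was not seen there (interaction -3.57; limma adjusted p = 0.0104). The region of lowest p on chromosome 5, from 6443944, had an interaction of -3.17 with the same adjusted p. On chromosome 2 from 155159734 to 155160318 the levels were 80.9, 90.7 and 54.8 FPM in TRaKO control and 31.2, 42.0 and 23.1 FPM in WT control, against 20.7, 10.3 and 26.8 FPM in TRaKO-Tail-T3 and 36.7, 37.8 and 46.5 FPM in WT-Tail-T3. Its interaction was -2.41 (limma adjusted p = 0.0320), with the genotypes apart in opposite directions. In the chromosome 2 segment 20 regions could be tested and 0 passed, the smallest limma adjusted p being 0.0511. An unadjusted p under 0.05 was reached by 14 of these 20, against 159 of all 1735 regions tested. The segment was picked for its untreated difference, which the interaction subtracts, so its larger share is no evidence of a change with T3. The same limit holds for the 6 that passed, since all 6 were called in untreated tail, 3 higher and 3 lower. Of the regions called higher 15 could be tested, and all 15 interactions were negative. Of those called lower 24 could be tested, and all 24 were positive. The count of 6 became 16 without TRaKO-Tail-T3 3, 3 without WT control 1, 2 without WT-Tail-T3 2 and 0 without the variance trend.

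In position the called regions differed from the rest of the set by description. Of the 3746 regions, 1506 (40.2%) lay within 5 Mb of a chromosome end, taking the last peak as the end, against 9.94% of all 157744 regions of the 6 lists. Of the 46 called higher 7 lay there (15.2%), and of the 26 called lower 1 (3.85%). The share of those called lower rests largely on a single place, since 18 of the 26 are neighbours in the chromosome 2 segment. Chromosome 10, the shortest, carried 7.26 regions per Mb and chromosome 1 the fewest, 2.18 per Mb. The regions were a median of 65.8 kb apart.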

How the data were processed

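The 12 deposited lists hold peaks from TR chromatin immunoprecipitation of tadpole tail, 3 lists per group, and groups and replicate numbers came from the labels. The submitters' processing notes name Bowtie2 2.3.4.1 and MACS2 2.1.1.20160309. Per the file headers, peaks were called on paired-end fragments of each library alone, without duplicates or an input control, at a q-value cutoff of 0.05, with local background taken over 10000 bp and an effective genome of 1510000000 bp. The deposited lists give the pileup at the summit (signal in fragments, not scaled to depth), the fold enrichment (a ratio to the local background with 1 added to both, which was used to recover that background), and a −log10 p-value and −log10 q-value for each peak. The last was used only for the alternative of −log10 q of at least 5. Depth is the fragments after filtering of the file headers.

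Peaks of the 6 untreated lists sharing at least 1 bp were merged (Python 3.11.15, pandas 2.3.3), and regions with a peak in at least 4 lists were kept. The highest pileup of a list in a region was scaled to 1000000 fragments, log2 transformed without a pseudocount and fitted by limma 3.58.1 (R 4.3.3) with a variance trend, missing lists left out, and p-values were adjusted by Benjamini-Hochberg over all 3746 regions. In T3 lists the highest peak sharing at least 1 bp with a region was taken. The interaction was fitted over all 12 libraries. Merging and fitting were tested on simulated data. By the rule for named regions, the text gives the 8 regions of lowest p in each direction, the 6 of highest level with all 6 lists, and for each direction the 3 tallest with 3 lists of 1 genotype and 1 of the other. The interactions and further regions called lower are named beside them, and the last were chosen after their values were seen. The regions and rules were chosen with earlier results of these data known. Planned lists of genes and a search for the thyroid hormone response element needed annotation and sequence of build 9.1, which were not used here. Alternatives were another scaling, stricter peaks, merging by summits within 200 bp, other minimum numbers of lists, a mean pileup of at least 10 fragments, 1 fragment added, missing lists at the lowest pileup, single peaks, no trend, pileup weights, a replicate block and leaving out each library.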

Additional observations from a re-analysis of the deposited data

Results flagged for a closer look

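The difference between the genotypes itself differed between T3-treated and untreated tail at 6 of 1735 regions tested with an interaction term in limma (0.346%), given as the T3 difference minus the untreated difference on the log2 scale. It was 1.03 on chromosome 8 from 23529071 and 0.99 on chromosome 5 from 35928559, which are among the tallest regions of all. It was 2.80 on chromosome 8 from 108179986. It was -3.57 on chromosome 6 from 135051044, -3.17 on chromosome 5 from 6443944 and -2.41 on chromosome 2 from 155159734. The adjusted p-values were between 0.00163 and 0.0320. All 6 regions had been called in untreated tail, 3 higher and 3 lower. The interaction subtracts that untreated difference, so the 6 are not independent of those calls. TRaKO-Tail-T3 3 stood apart at several of these regions, and its part in the values was not tested region by region. At each of the 6 regions of highest level with all 6 lists, the untreated difference was negative and the T3 difference positive. That change of sign was thus not particular to the tall regions named here.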

How the results depend on the processing

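Of 3746 regions, 46 were called higher and 26 lower. With a peak in all 6 lists 28 were higher, without the variance trend 30 were higher and 1 lower, and with a mean pileup of at least 10 fragments 41 were lower and the median difference over regions was -0.11. Leaving out each library gave 37 to 76 higher (76 without TRaKO control 3), 17 to 36 lower (17 without WT control 1) and a median of 0.018 to 0.24. Deviations of equally numbered libraries of the genotypes correlated by 0.14, 0.025 and 0.12 over 809 regions, for numbers 1, 2 and 3. The highest correlation with a library of another number was -0.017, 0.028 and -0.0060 for TRaKO controls 1, 2 and 3. For WT controls 1, 2 and 3 it was -0.048, -0.0060 and 0.028. Only TRaKO control 2 thus correlated better with another number than with its own. Whether equal numbers mark paired libraries was not tested. With the replicate number as a block 24 were higher and 21 lower, and with block and median ratio scaling 46 were lower. The other alternatives moved these counts by less than 1.5 times. The 3746 regions became 817 with −log10 q of at least 5, 2454 with summits within 200 bp, and 2140 to 3298 without a library. Regions of 3 TRaKO control lists and 1 WT control list were 114, with 30 at the stricter q and 170 to 320 without a WT control; those of 1 and 3 were 668, with 159 at the stricter q and 784 to 1226 without a TRaKO control. The 6 interactions became 12 with a mean pileup of at least 10, 11 with the block, 0 without the trend and 2 to 16 without a library. The T3 comparison, whose alternatives were chosen after seeing the data, gave 0 to 2 higher and 0 to 14 lower without a library. The causes were not tested.

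Among named regions, signs turned in 3 cases, each with a library left out and none called: chromosome 10 from 16969892 (range -0.26 to 0.071, positive without TRaKO control 1 or WT control 3) and chromosome 4 from 52501691 (range -0.21 to 0.037, positive without WT control 2). Without the trend 10 named calls were lost, among them chromosome 3 from 133621827 (adjusted p = 0.277) and 7 of the chromosome 2 segment with adjusted p between 0.0983 and 0.253. The only region still called lower without the trend was on chromosome 3 from 76367407, so every call in the segment was lost. Depth limits the rest: the median pileup over the regions was 3 to 10 fragments in a library.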
